A study of Trametes versicolor and Gelatoporia subvermispora with 30 samples.

Results

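Transcript levels were compared between mycelium of the white-rot fungus Gelatoporia subvermispora grown with syringic acid and mycelium grown without it. The comparison rests on 6 of the 30 libraries in the series, chosen by their titles: 3 from cultures with 5 g/L cellobiose and 2 mM syringic acid, and 3 from cultures with 5 g/L cellobiose alone. Each library held 12313 gene rows, of which 10860 passed a filter on low counts over the 15 libraries of the species and were tested. Both groups were liquid cultures in a Czapek-Dox type medium of known composition, started from blended mycelium of a richer seed culture, and culture time was not in the sources used here. The other G. subvermispora groups had 2 mM 4-hydroxybenzoic acid (4HBA) with cellobiose, 25 mg of poplar lignin in 25 mL with cellobiose, or, with no cellobiose, 2 g of ground poplar wood per 25 mL, at 3 libraries each. The 15 libraries of a second fungus were not used here. The labels do not say whether the 3 libraries of a group came from separate cultures, so p-values measure only the spread between libraries, which may be technical. Reads came from whole mycelium, so less RNA per cell and fewer cells that express a gene cannot be told apart.

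White-rot fungi break down lignin with secreted oxidative enzymes. Laccases are copper enzymes that oxidise phenols, manganese peroxidases make a diffusible manganese oxidant, and lignin peroxidases act on non-phenolic units. G. subvermispora is known for removing lignin from wood while leaving much of the cellulose. Syringic acid is a phenolic acid with a methoxy group on either side of its hydroxyl, a substitution it shares with the syringyl units of hardwood lignin, and 4HBA is the same acid without the methoxy groups. The study's title concerns the fate of lignin-derived compounds within fungal cells.

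Library type differed between both sides of the comparison and bears on every value. The 10 most abundant genes took 5.14% to 5.95% of gene counts in the syringic acid libraries and 32.7% to 36.4% in the cellobiose libraries. Reads that were not assigned to a single gene made up 8.09% to 8.37% of all counts with syringic acid and 24.2% to 25.9% on cellobiose. Lignin, poplar and 4HBA replicates 2 and 3 were like the syringic acid libraries, while 4HBA replicate 1 was like the cellobiose libraries, with 43.5% in its top 10 genes. The numbers in the sample labels of syringic acid and lignin follow a low line, and those of the other groups do not. Within these 6 libraries, syringic acid, library type and this label series cannot be told apart. Gene counts summed to 25.6 M to 38.4 M with syringic acid and to 31.1 M to 34.7 M on cellobiose. Levels are given as normalised CPM, a count scaled by the effective size of its library, and 3 counts, the limit that a count of 0 allows, correspond to 0.0605 to 0.0916 CPM with syringic acid and 0.137 to 0.172 CPM on cellobiose.

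**Figure D1:**
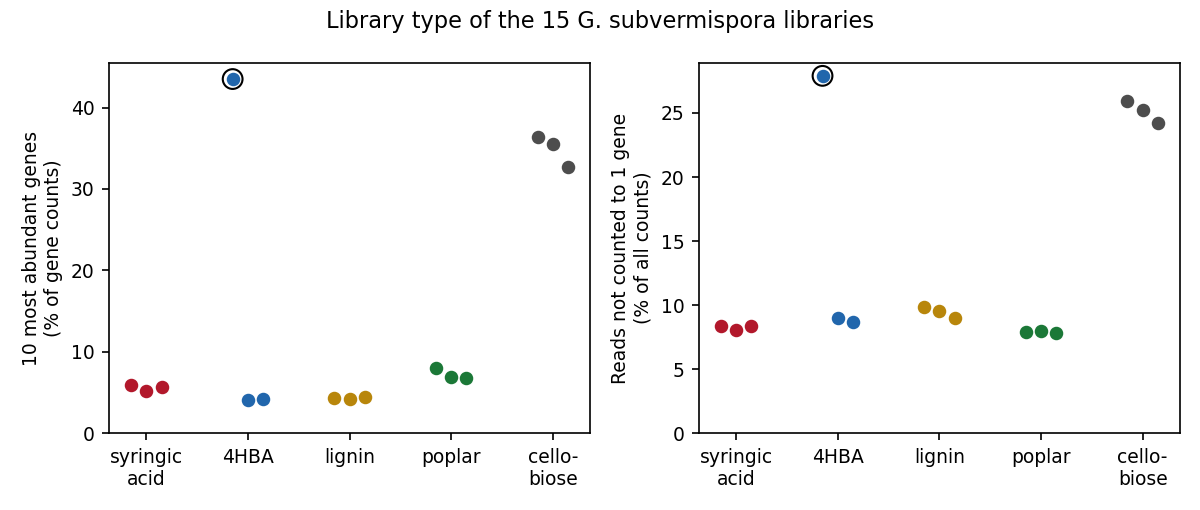
Each point is 1 of the 15 G. subvermispora libraries, by group; the left panel gives the share of gene counts in the 10 most abundant genes (%) and the right panel the share of reads not counted to a single gene (%), with 4HBA replicate 1 circled. The 3 syringic acid libraries lie at 5.14% to 5.95% in the left panel, below the 3 cellobiose libraries at 32.7% to 36.4%.

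The 4HBA group holds both library types under 1 treatment, with replicate 1 as its only library of the cellobiose type. A difference by type and a difference of that library alone cannot be told apart there. A set of 43 genes was at least 16-fold higher in 4HBA replicate 1 than in the mean of 4HBA replicates 2 and 3. The choice used no counts of syringic acid or cellobiose libraries, but it was made after the data were seen. Nor was it independent of those libraries, because library type was assigned from the share of the most abundant genes. The lower level of the set with syringic acid is therefore not a separate test of library type. These 43 genes took 1.45%, 2.12% and 1.88% of gene counts in the syringic acid libraries and 60.2%, 58.2% and 53.8% in the cellobiose libraries. They took 70.1% in 4HBA replicate 1, against 0.812% and 0.612% in the other two 4HBA libraries. All 43 were called lower with syringic acid than on cellobiose, with fitted log2 changes between -8.27 and -2.64. Where a gene had 3 counts or fewer with syringic acid, its change depends on the prior count of the fit, left at edgeR's default. None of the 43 has a symbol, and the files pair no product with them.

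Over all 10860 genes, the log2 change between syringic acid and cellobiose and the log2 difference between 4HBA replicate 1 and its partners had a Pearson r of -0.455 and a Spearman rho of -0.21. Over the 10817 genes outside the set they had a Pearson r of -0.16 and a Spearman rho of -0.20. Of the 6137 genes called between syringic acid and cellobiose, 3850 had opposite signs in both differences. The count was not made over all tested genes, so whether called genes differ from them in this is not known. These are descriptions across genes, which are not independent replicates, and they rest on 1 library of the cellobiose type. Of 149 genes that fell at least 4-fold with syringic acid, 52 were at least 2-fold higher in 4HBA replicate 1 than in the mean of 4HBA replicates 2 and 3, and 43 of these were the set itself. Outside the set it was 9 of 106 falls, or 8.49%, against 137 of 10817 genes, or 1.27%. Of the 136 genes that rose at least 4-fold, 134 were within 2-fold between 4HBA replicate 1 and the mean of its partners. The other 2 were lower in replicate 1. Over all tested genes 10604 of 10860 were within 2-fold, a similar share.

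**Figure D2:**
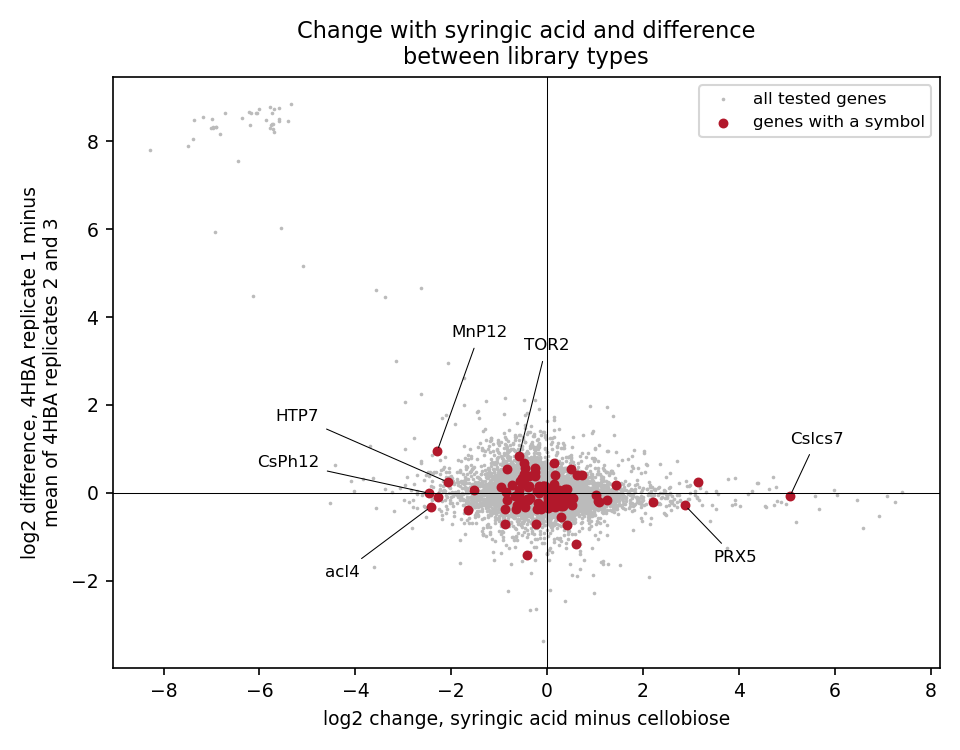
Each point is a tested gene; the horizontal axis is its log2 change, syringic acid minus cellobiose, and the vertical axis its log2 difference between 4HBA replicate 1 and the mean of 4HBA replicates 2 and 3, which differ in library type. Genes with a symbol (109) are drawn in red; the 43 genes above 4 on the vertical axis all lie left of -2.6, while Cslcs7 and PRX5 lie far right near 0 on the vertical axis.

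Of the 10860 genes tested, 6137 (56.5%) were called at an adjusted p below 0.05 in edgeR's quasi-likelihood test, 2912 of them higher (26.8%) and 3225 lower (29.7%) with syringic acid. At least a 2-fold change was seen in 561 of the genes called higher and 708 of those called lower. With library type as a term in the model, which only 4HBA replicate 1 makes estimable, 2705 genes (24.9%) were called, 1190 higher and 1515 lower. All 4HBA libraries lack the low line in their labels, so this term cannot account for label series. It rests on how 4HBA replicate 1 differs from its partners. A gene's difference there and its value with the term are therefore not separate observations. Of the 110 genes with a symbol in the files, 109 were tested and 58 of these were called, or 53.2%, close to the share over all genes. With the term for library type, 23 of the 58 kept call and direction, 32 lost the call and 3 changed direction. Genes named below as the largest rises and falls were chosen among those without overlap between the 3 and 3 libraries. Non-overlap in them is therefore no separate result, and 66.8% of all tested genes did not overlap.

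Syringic acid was accompanied by higher levels of the laccases Cslcs7 and Cslcs1. Cslcs7 stood at 16.7, 311 and 291 CPM in the syringic acid libraries, against 6.20, 5.90 and 6.38 CPM in the cellobiose libraries. All 3 syringic acid libraries lay above the cellobiose libraries, but replicate 1 was far below the other two. The log2 change was 5.06 (SE 0.74, adjusted p = 6.29e-05), and 5.60 without syringic acid replicate 1. It was 4.98 with library type as a term (adjusted p = 0.0259).

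The same laccase was near its cellobiose level with 4HBA and moderately above it with lignin and poplar. Cslcs7 had 7.20, 7.71 and 7.51 CPM with 4HBA, 14.7, 11.5 and 10.8 CPM with lignin and 17.9, 21.3 and 19.9 CPM on poplar. Syringic acid replicate 1, at 16.7 CPM, lay above the lignin libraries and below the poplar libraries, and the other two syringic acid libraries lay above every other library. Against lignin, a group of the same library type and label series, the log2 difference was 4.07 (adjusted p = 0.000474).

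Cslcs1 had 1295, 865 and 1117 CPM with syringic acid, against 356, 473 and 381 CPM on cellobiose. The groups did not overlap, and the log2 change was 1.44 (SE 0.24, adjusted p = 0.000178) or 1.61 with the term for library type (adjusted p = 0.012). With 4HBA it had 509, 479 and 422 CPM, so that replicate 1, of the cellobiose library type, was close to its partners. Lignin gave 1147, 1065 and 1037 CPM, and syringic acid differed from it by 0.01 on the log2 scale (95% interval -0.49 to 0.51), which was not called.

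Cslcs2 was lower with syringic acid, and the other laccases were not called. Cslcs2 had 165, 59.2 and 115 CPM with syringic acid, against 146, 227 and 195 CPM on cellobiose, so that the groups overlapped. Its log2 change of -0.74 (adjusted p = 0.0413) was lost without syringic acid replicate 2 (-0.43), syringic acid replicate 3 (-0.75), cellobiose replicate 2 (-0.60) or cellobiose replicate 3 (-0.73). The call was also lost with library type as a term (-0.58, adjusted p = 0.477), in the 6 libraries alone (-0.70, adjusted p = 0.111) and without genes above 1% of counts (-0.70, adjusted p = 0.0524). Cslcs6 was at 71.6 ± 10.4 CPM with syringic acid and 70.5 ± 2.37 CPM on cellobiose (SD, n = 3 each). In all, 2 of the 7 laccases were called higher and 1 lower, a share of 42.9% against 56.5% over all genes, and their median log2 change was 0.25 against -0.04 (all genes).

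**Figure D3:**
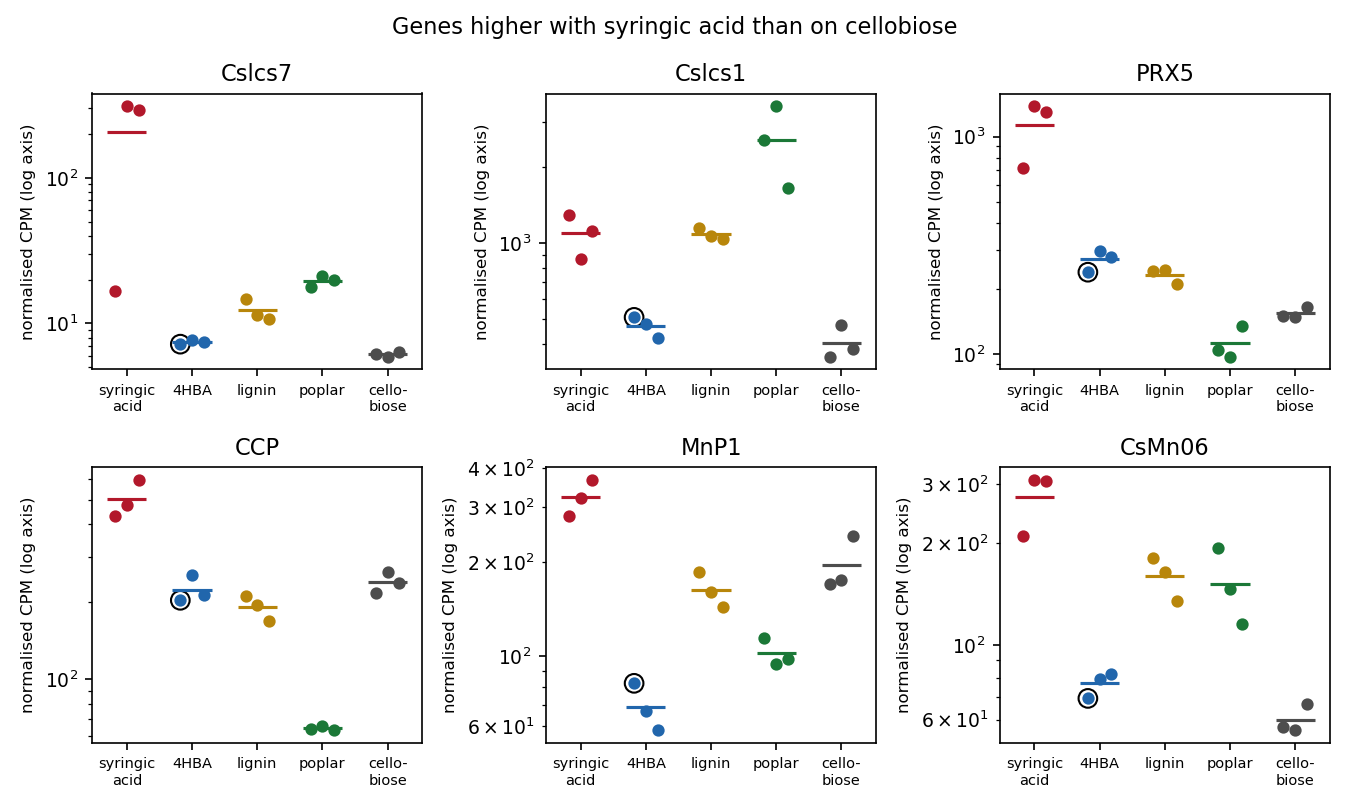
Normalised CPM on a log axis for 6 genes called higher with syringic acid, in each of the 15 libraries by group; points are libraries, lines are group means (n = 3) and 4HBA replicate 1 is circled. Cslcs7 in syringic acid replicate 1 (16.7 CPM) lies far below replicates 2 and 3 (311 and 291 CPM), and the Cslcs1 points of syringic acid and lignin overlap.

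PRX5, a symbol with which the files pair no product, rose with a wide gap between both groups. It had 715, 1381 and 1299.8 CPM with syringic acid, against 149, 148 and 165 CPM on cellobiose, a ratio of means of 7.34. Replicate 1 was again the lowest syringic acid library, yet more than 4 times every cellobiose library. The log2 change was 2.87 (SE 0.21, adjusted p = 1.72e-07), 2.59 with the term for library type (adjusted p = 0.000423) and 3.11 without replicate 1. With lignin the gene had 240.0, 244 and 210.3 CPM and on poplar 105, 97.3 and 134 CPM, and syringic acid was higher than lignin by 2.29 on the log2 scale (adjusted p = 4.82e-06).

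CCP, cytochrome c peroxidase by its symbol, a mitochondrial enzyme that removes hydrogen peroxide, was also higher. It had 432, 475 and 598 CPM with syringic acid, against 217, 262 and 236 CPM on cellobiose. The groups were well apart, with a log2 change of 1.07 (SE 0.13, adjusted p = 1.06e-05) and 0.87 with library type as a term (adjusted p = 0.0141). Lignin libraries had 210.2, 194 and 169 CPM and poplar libraries 64.0, 66.1 and 63.4 CPM, below syringic acid by log2 differences of 1.4 and 2.96. CCP was called higher with syringic acid than in each of the other 4 groups.

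Among the manganese peroxidases, MnP1 rose and MnP12 fell. MnP1 had 282, 321 and 368 CPM with syringic acid, against 170.3, 175 and 243 CPM on cellobiose. The lowest syringic acid library lay above the highest cellobiose library, and the log2 change was 0.72 (SE 0.16, adjusted p = 0.00168), or 1.12 with the term for library type (adjusted p = 0.0103). Lignin libraries had 186, 160.3 and 144 CPM, lower than syringic acid by a log2 difference of 0.98.

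MnP12 had 6.31, 6.08 and 4.56 CPM with syringic acid, against 28.1, 23.7 and 30.9 CPM on cellobiose, a log2 change of -2.29 (adjusted p = 0.000122). It was also higher in 4HBA replicate 1, of the cellobiose type, with 16.7 CPM, against 8.78 and 8.48 CPM in the other 4HBA libraries. Fitted with library type its log2 change was -1.35 and the call was lost (adjusted p = 0.126). Against lignin, of the same type, it differed by -0.62 (95% interval -1.39 to 0.16) and was not called.

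MnP7 and MnP9 fell by 0.47 and 0.49 on the log2 scale. MnP9 was at 13.3 ± 1.48 CPM with syringic acid and 18.6 ± 0.667 CPM on cellobiose (SD, n = 3 each), and it was called lower with syringic acid than in each of the other 4 groups. With library type as a term MnP9 lost its call against cellobiose (-0.27, adjusted p = 0.281), and MnP7 kept it (-0.80, adjusted p = 0.0207). The remaining 9 of 13 manganese peroxidases were not called, so 30.8% of the family was called against 56.5% of all genes.

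MnP2, which was not called, varied widely among the syringic acid libraries. It had 981, 296 and 399.9 CPM with syringic acid, against 631, 916 and 858 CPM on cellobiose. Syringic acid replicate 1 lay above every cellobiose library and replicates 2 and 3 lay below every one. The log2 change was -0.52 (95% interval -1.61 to 0.57, adjusted p = 0.4), and -1.22 without syringic acid replicate 1 (adjusted p = 0.0583). Reads shared between closely similar peroxidase genes could have been split or dropped in the authors' counting, so single members are less certain than the family.

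LiP2, a lignin peroxidase, was slightly lower. LiP2 had 907, 818 and 888 CPM with syringic acid, against 989.6, 1173 and 1239 CPM on cellobiose, without overlap. The log2 change was -0.38 (SE 0.12, adjusted p = 0.0165). The call was lost without syringic acid replicate 2 (-0.34), without cellobiose replicate 3 (-0.32) and with library type as a term (-0.23). LiP1 was below 1 CPM in both groups and was not called. GP, the generic peroxidase symbol, was at 28.5 ± 1.62 CPM with syringic acid and 23.4 ± 2.26 CPM on cellobiose (SD, n = 3 each) and was not called (adjusted p = 0.0728).

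Heme-thiolate peroxidases, secreted enzymes that insert oxygen into many substrates, included the large fall of HTP7. HTP7 had 96.3, 89.0 and 62.6 CPM with syringic acid, against 331, 376 and 337 CPM on cellobiose. Every syringic acid library lay far below every cellobiose library, and the log2 change was -2.07 (SE 0.22, adjusted p = 3.50e-06). With library type as a term it was -1.84 (adjusted p = 0.00272). Lignin libraries had 145, 153 and 125 CPM, higher than syringic acid (log2 difference, syringic acid minus lignin, -0.77, adjusted p = 0.012), and poplar libraries had 5212, 6042 and 7641 CPM. HTP7 was called lower with syringic acid than in each of the other 4 groups.

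HTP4 and HTP1 were also lower, and HTP3 and HTP6 slightly higher. HTP4 had 2.98, 5.01 and 3.15 CPM with syringic acid, against 12.5, 10.2 and 9.16 CPM on cellobiose (log2 change -1.52, adjusted p = 0.0002). With 4HBA it had 4.50, 3.90 and 4.67 CPM, near the syringic acid level in libraries of both types. HTP1 fell by 0.85 on the log2 scale to 37.2 ± 5.28 CPM, against 67.2 ± 9.77 CPM on cellobiose, and was at 33.9 ± 2.64 CPM with lignin (SD, n = 3 each). HTP3 was at 15.3 ± 0.943 CPM with syringic acid and 11.3 ± 1.17 CPM on cellobiose, a log2 change of 0.43. HTP6, below 3 CPM in every one of these 6 libraries, had a log2 change of 0.54, and its call was lost without syringic acid replicate 1 (0.40), syringic acid replicate 2 (0.51), cellobiose replicate 1 (0.44) or cellobiose replicate 2 (0.49). In the family of 9, then, 2 were called higher and 3 lower (55.6% called, against 56.5% of all genes). Fitted with library type, HTP7 alone stayed called: HTP4 had -1.46 (adjusted p = 0.0593), HTP1 -0.84, HTP3 0.31 and HTP6 0.41.

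**Figure D4:**
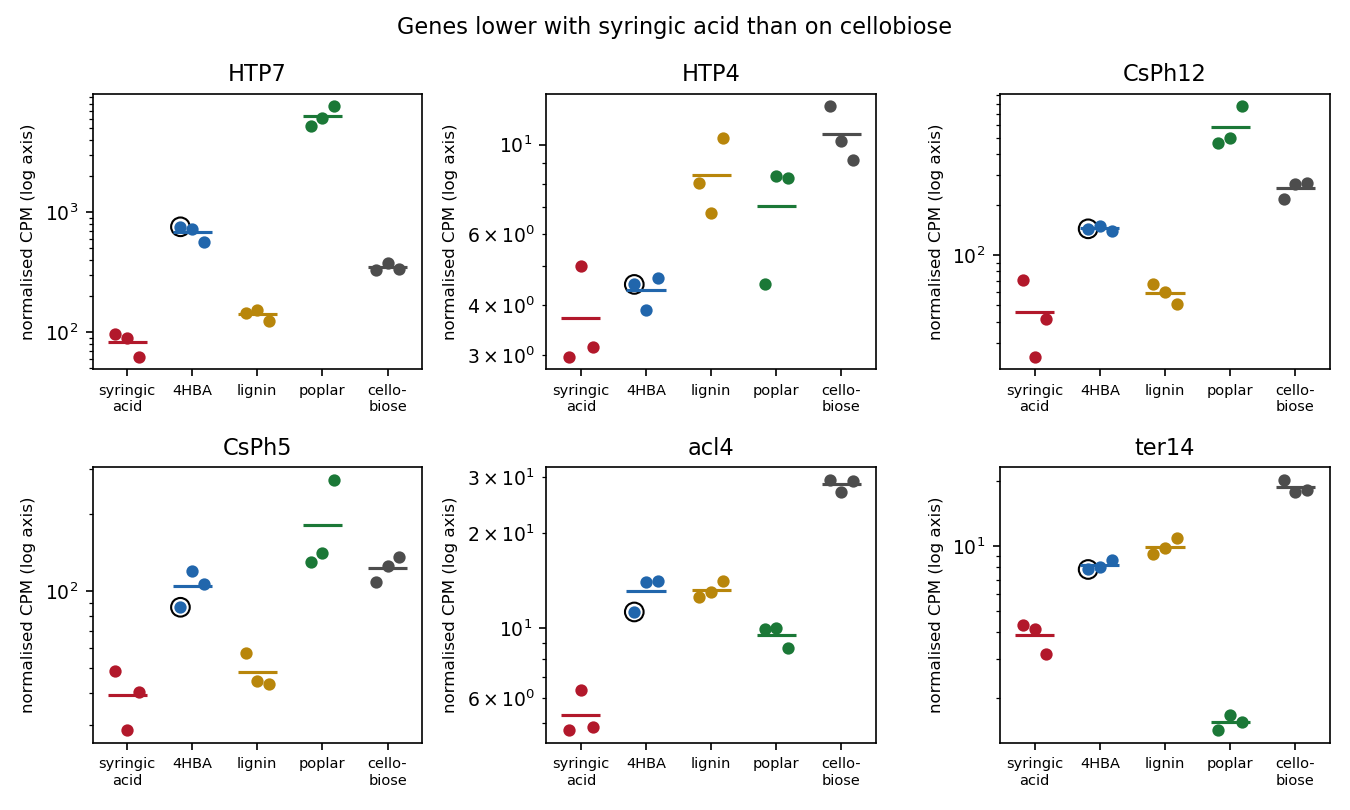
Normalised CPM on a log axis for 6 genes called lower with syringic acid than on cellobiose, in each of the 15 libraries by group; points are libraries, lines are group means (n = 3) and 4HBA replicate 1 is circled. The syringic acid points lie below the cellobiose points in every panel, as the choice of these genes required. In these panels 4HBA replicate 1 lies near 4HBA replicates 2 and 3.

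Csfet3, by its symbol a ferroxidase of high-affinity iron uptake, was not called. It had 306, 521 and 378 CPM with syringic acid, against 515, 301 and 469 CPM on cellobiose. The groups overlapped, and the log2 change was -0.09 (95% interval -0.59 to 0.41).

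Pheromone genes moved in both directions, with the larger number of calls downward. Basidiomycete pheromones are small lipopeptides recognised by receptors of the STE3 family, and both control mating. CsPh12 had 70.9, 24.7 and 41.2 CPM with syringic acid, against 217, 264 and 269 CPM on cellobiose, with a log2 change of -2.45 (SE 0.30, adjusted p = 1.17e-05). CsPh5 had 49.0, 28.7 and 40.4 CPM with syringic acid, against 109, 125 and 136 CPM on cellobiose (log2 change -1.65, adjusted p = 0.000121). In both genes all 3 syringic acid libraries lay below all 3 cellobiose libraries, with replicate 2 the lowest. Both kept their calls with the term for library type, at -2.47 and -2.04 (adjusted p = 0.00818 and 0.0101), and neither differed by a call from lignin (-0.38, 95% interval -0.98 to 0.23, and -0.30, 95% interval -0.85 to 0.25).

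CsPh2 and CsPh3 fell less. CsPh2 had 873, 309 and 582 CPM with syringic acid, against 969, 1062 and 1219 CPM on cellobiose. Its log2 change of -0.88 (adjusted p = 0.0209) lost the call without syringic acid replicate 2 (-0.57), syringic acid replicate 3 (-0.87) or cellobiose replicate 3 (-0.80), and in the 6 libraries alone (-0.84). CsPh3 had 225, 106 and 171 CPM with syringic acid, against 310.0, 295 and 369 CPM on cellobiose (log2 change -0.96, adjusted p = 0.00443). Fitted with library type, CsPh2 had -1.26 (adjusted p = 0.107) and CsPh3 -0.83 (adjusted p = 0.213).

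CsPh1 went the other way from a low level. It had 6.08, 10.3 and 6.74 CPM with syringic acid, against 0.804, 0.900 and 0.865 CPM on cellobiose, so every syringic acid library was several times the highest cellobiose library. The log2 change was 3.16 (SE 0.40, adjusted p = 1.74e-05), and 3.41 with library type as a term, where the call was narrowly missed (adjusted p = 0.0571). The lignin libraries, at 1.77, 3.17 and 0.974 CPM, and the poplar libraries, at 0.155, 0.221 and 0.435 CPM, were all lower. CsPh1 was called higher with syringic acid than in each of the other 4 groups.

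CsPh10 rose to 11.9 ± 0.103 CPM with syringic acid, against 8.38 ± 0.682 CPM on cellobiose (SD, n = 3 each; log2 change 0.51), and was at 12.5, 15 and 15.2 CPM with 4HBA. CsPh7 and CsPh9, both under 6 CPM in these 6 libraries, fell by 0.63 and 0.55 on the log2 scale, and were called lower than in each of the other 4 groups. In total 2 of the 12 pheromone symbols were called higher and 6 lower, or 66.7% called against 56.5% of all genes, with a median log2 change of -0.48 against -0.04 (all genes). With library type as a term, CsPh5, CsPh7 and CsPh12 stayed called, all lower (25% of the 12, against 24.9% of all genes), and the median was -0.78 against -0.06 (all genes). CsPh10 had 0.24 with that term (adjusted p = 0.297) and CsPh9 -0.72 (adjusted p = 0.0902).

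Of the 6 pheromone receptor symbols, 1 was called higher and 3 lower (66.7% called, against 56.5% of all genes), and 2 with the term for library type (33.3%, against 24.9%). CsSTE3.1 had 8.13, 7.11 and 7.59 CPM with syringic acid, against 13.0, 14.2 and 13.8 CPM on cellobiose, with no overlap and a narrow spread. Its log2 change was -0.84 (SE 0.10, adjusted p = 7.59e-06) and -1.01 with the term for library type (adjusted p = 0.00165). CcSTE3.6 had 68.9, 42.8 and 55.6 CPM with syringic acid, against 68.9, 80.1 and 75.7 CPM on cellobiose. Its log2 change of -0.43 (adjusted p = 0.0332) lost the call without syringic acid replicate 2 (-0.27), syringic acid replicate 3 (-0.42), cellobiose replicate 2 (-0.38) or cellobiose replicate 3 (-0.43). It was also lost with library type as a term (-0.56, adjusted p = 0.184), in the 6 libraries alone (-0.39, adjusted p = 0.0698) and without genes above 1% of counts (-0.38, adjusted p = 0.0509). Both receptors were called lower with syringic acid than in each of the other 4 groups. CsSTE3.2 and CsSTE3.4 had log2 changes of -0.65 and 0.27.

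**Figure D5:**
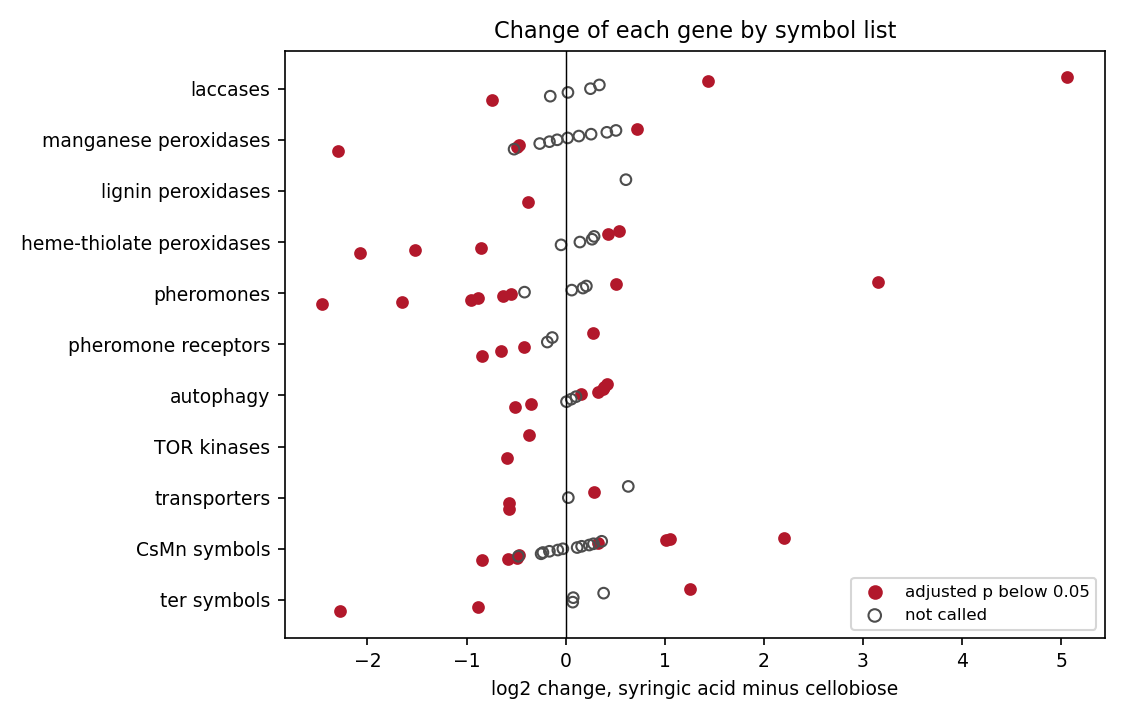
Each point is a gene placed by its log2 change, syringic acid minus cellobiose, in the list its symbol belongs to; filled points were called at an adjusted p below 0.05 and open points were not. The laccase Cslcs7 (5.06) lies furthest right and the pheromone CsPh12 (-2.45) furthest left.

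The symbols acl4 and ter14, with which the files pair no product, fell with little spread among libraries. acl4 had 4.76, 6.35 and 4.88 CPM with syringic acid, against 29.5, 26.9 and 29.3 CPM on cellobiose (log2 change -2.43, SE 0.12, adjusted p = 9.37e-09). ter14 had 4.30, 4.15 and 3.17 CPM with syringic acid, against 20.3, 17.8 and 18.2 CPM on cellobiose (log2 change -2.28, SE 0.12, adjusted p = 1.31e-08). In both genes every cellobiose library was more than 4 times every syringic acid library. With the term for library type the changes were -2.75 and -2.38, both called. With lignin acl4 had 12.5, 13.0 and 14 CPM and ter14 9.19, 9.75 and 10.9 CPM, between both groups, and the log2 differences of syringic acid from lignin were -1.31 and -1.37. Of the 6 ter symbols 1 was called higher and 2 lower (50% called, against 56.5% of all genes). The higher one was ter12, at 3.12 CPM with syringic acid and 1.31 CPM on cellobiose (log2 change 1.26, and 1.08 with library type as a term).

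Among 19 symbols that begin with CsMn, with which the files pair no product, 4 were called higher and 4 lower (42.1% called, against 56.5% of all genes). CsMn06 had 210.1, 309 and 307 CPM with syringic acid, against 57.2, 55.8 and 66.6 CPM on cellobiose (log2 change 2.20, SE 0.19, adjusted p = 6.55e-07). CsMn33 had 89.6, 122 and 108 CPM with syringic acid, against 50.7, 53.1 and 50.1 CPM on cellobiose (log2 change 1.06), and lignin gave 116, 105 and 120.3 CPM. CsMn41 had 138, 115 and 139 CPM with syringic acid, against 65.0, 65.4 and 64.5 CPM on cellobiose (log2 change 1.01). These were the 3 CsMn symbols that kept their calls with the term for library type (15.8% of the 19, against 24.9% of all genes), at 1.98, 0.88 and 0.97.

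CsMn25 was the largest fall of that prefix, and it was also higher in 4HBA replicate 1 than in the other 4HBA libraries. It had 47.6, 57.5 and 59.6 CPM with syringic acid, against 91.1, 111 and 93.8 CPM on cellobiose (log2 change -0.85, adjusted p = 0.000718). The 4HBA libraries had 47, 35.6 and 29.4 CPM, the first of the cellobiose type, and with the term for library type the change was -0.31 (adjusted p = 0.412). CsMn38 was at 4029 ± 379 CPM with syringic acid and 3132 ± 479.8 CPM on cellobiose (SD, n = 3 each), which was not called (adjusted p = 0.142), and at 1574 ± 125 CPM with lignin, which was lower than syringic acid (log2 difference 1.36, adjusted p = 0.000238).

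Genes of autophagy, the breakdown of cell contents in the vacuole, changed little in size. Of the 10 ATG symbols 5 were called higher and 2 lower, all by less than 2-fold (70% called, against 56.5% of all genes). Library type as a term left 3 called (30%, against 24.9% of all genes). ATG15A, by its symbol a vacuolar lipase, had 45.3, 43.7 and 47 CPM with syringic acid, against 35, 32.8 and 34.3 CPM on cellobiose (log2 change 0.41, adjusted p = 5.45e-05), and 0.50 with library type as a term (adjusted p = 0.00426). ATG1, the kinase that starts autophagy, was at 40.2 ± 2.22 CPM with syringic acid and 31 ± 1.00 CPM on cellobiose (SD, n = 3 each; log2 change 0.38). ATG27 had a log2 change of 0.38 (adjusted p = 0.0138), and its call was lost without syringic acid replicate 3 (0.34) or cellobiose replicate 2 (0.34), and with library type as a term (0.16, adjusted p = 0.618). ATG4, a protease that processes ATG8, was lower at 56.9 ± 3.86 CPM with syringic acid and 81.3 ± 1.24 CPM on cellobiose (log2 change -0.52), and -0.30 with the term (adjusted p = 0.0529).

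The TOR kinases, which couple growth to nutrients, were lower with syringic acid. Both were also higher in the 4HBA library of the cellobiose type than in the other 4HBA libraries. TOR2 had 151, 159 and 144 CPM with syringic acid, against 239, 228 and 215 CPM on cellobiose (log2 change -0.59, adjusted p = 0.0106). The 4HBA libraries had 201, 108 and 116 CPM, with replicate 1 just below the cellobiose libraries and its partners below the syringic acid libraries. With the term for library type the log2 change was 0.26 for TOR2 and 0.00 (SE 0.14) for TOR1, and neither was called. TOR1 had a log2 change of -0.37 without the term, and 55.7, 43.3 and 42.4 CPM in the 4HBA libraries. Among 5 symbols of major facilitator transporters 1 was called higher and 2 lower (60% called, against 56.5% of all genes), with mfs1 at 88.7 ± 1.33 CPM with syringic acid and 72.6 ± 5.24 CPM on cellobiose (SD, n = 3 each; log2 change 0.29). Its log2 change was 0.29 with the term for library type (adjusted p = 0.148).

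The largest changes of all belonged to genes without a symbol. CERSUDRAFT_126688 had 1349, 3272 and 3748 CPM with syringic acid, against 17.8, 17.7 and 19.2 CPM on cellobiose, a log2 change of 7.26 (SE 0.39, adjusted p = 1.39e-08). It was at 15.9, 13.8 and 24.4 CPM with 4HBA and 18.5, 16.9 and 13.7 CPM on poplar, near the cellobiose level in libraries of both types, and at 508, 467 and 369 CPM with lignin. Syringic acid was above lignin by a log2 difference of 2.64 (adjusted p = 3.76e-05).

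CERSUDRAFT_116559 had 332, 1517 and 1657 CPM with syringic acid, against 7.46, 5.85 and 7.38 CPM on cellobiose, a log2 change of 7.40 (SE 0.66, adjusted p = 8.35e-07). The means of the other 3 groups lay between, at 81.2, 59.8 and 106 CPM with 4HBA, 424, 268 and 109 CPM with lignin and 289.6, 379 and 336 CPM on poplar. Syringic acid replicate 1 was the lowest of its group in both genes, and for CERSUDRAFT_116559 it overlapped the lignin and poplar libraries. With the term for library type both rises stood, at 6.99 and 7.37.

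Both locus tags with the largest falls belonged to the 43 genes that separate the library types. CERSUDRAFT_69784 had 1.25, 2.20 and 2.12 CPM with syringic acid, against 356, 355 and 287 CPM on cellobiose, and 344, 1.77 and 1.11 CPM in 4HBA replicates 1, 2 and 3. CERSUDRAFT_163809 was at or below the limit of 3 counts in all 3 syringic acid libraries, against 18.8, 10.5 and 11.8 CPM on cellobiose, and had 24.8, 0.0999 and 0.0288 CPM with 4HBA. CERSUDRAFT_69784 had a log2 change of -7.49, and 0.43 with library type as a term, where neither gene was called.

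Syringic acid replicate 1 differed from its partners in a small share of genes, several of them among the largest changes. It was at least 2-fold below both other syringic acid libraries in 87 genes and at least 2-fold above both in 33. The same counts were 33 and 28 for replicate 2 and 8 and 3 for replicate 3, and between 7 and 28 for the cellobiose libraries. Among symbols the genes were Cslcs7, which was low in replicate 1, and MnP2 and MnP10, which were high. MnP10 had 24.1, 6.08 and 6.76 CPM with syringic acid, against 7.64, 11.7 and 6.65 CPM on cellobiose, was not called (0.51, adjusted p = 0.351), and turned to -0.44 without that library. These genes were picked after their values were seen.

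Syringic acid and 4HBA were both given at 2 mM, and they differ by the methoxy groups of syringic acid. Of 10860 genes, 5602 differed between them (51.6%), 2415 higher (22.2%) and 3187 lower (29.3%) with syringic acid. Without 4HBA replicate 1, so that both groups share a library type, 5357 of 10896 genes differed (49.2%). Their label series still differed, with the low line only for syringic acid, so acid and label series cannot be told apart. The comparison is of 1 pair of compounds, and p-values are adjusted over all genes.

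With syringic acid the laccases Cslcs7 and Cslcs1 were higher than with 4HBA, by log2 differences of 4.78 and 1.22 (adjusted p = 9.06e-05 and 0.000727). Within 1 library type the differences were 4.76 and 1.28. MnP1 was at 282, 321 and 368 CPM with syringic acid, against 82.1, 66.8 and 58.1 CPM with 4HBA, and LiP2 at 907, 818 and 888 CPM, against 471, 417 and 431 CPM with 4HBA. Neither gene overlapped between both acids, though overlap was not counted over all genes for this pair. The log2 differences of MnP1 and LiP2 were 2.23 (SE 0.17) and 0.99 (SE 0.12). PRX5 and CCP were higher with syringic acid by 2.05 and 1.17, and by 1.97 and 1.11 within 1 library type.

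HTP7 showed the widest gap downward among symbols, with 96.3, 89.0 and 62.6 CPM for syringic acid, against 755, 718 and 565 CPM for 4HBA (log2 difference -3.04, SE 0.23, adjusted p = 2.82e-07). CsPh12, CsPh5 and CsPh7 were lower with syringic acid, with log2 differences of -1.66, -1.41 and -2.13. Of the 12 pheromone symbols 1 was higher and 9 were lower with syringic acid than with 4HBA (83.3% called, against 51.6% of all genes). Of the 19 CsMn symbols 8 were called, all higher (42.1%, against 51.6% called and 22.2% called higher of all genes). CERSUDRAFT_126688 was higher by 7.27, or 7.19 within 1 library type.

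Several genes did not differ by a call between both acids. HTP4 differed by -0.24 (95% interval -0.79 to 0.32), Cslcs2 by 0.51 (95% interval -0.11 to 1.13) and MnP2 by 0.38 (95% interval -0.71 to 1.47). TOR1 and TOR2 differed by -0.02 (95% interval -0.24 to 0.20) and 0.10 (95% interval -0.28 to 0.47), and TOR2 by 0.43 without 4HBA replicate 1, where it was called (adjusted p = 0.00191). The interval of MnP2 leaves room for differences above 2-fold.

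Syringic acid and lignin libraries share both library type and label series, and 3653 of 10860 genes (33.6%) differed between them, 1624 higher (15%) and 2029 lower (18.7%) with syringic acid. Cslcs1, CsMn33, HTP1, CsPh3 and ATG15A did not differ by a call, with log2 differences between -0.09 and 0.13. MnP2 was higher with syringic acid than with lignin, which had 159.8, 129 and 184 CPM (log2 difference 1.83, adjusted p = 0.0155), and HTP5 was higher by 1.02. Cslcs2 and Csfet3 were lower with syringic acid, with log2 differences of -1.11 and -0.76. Against poplar, which has no cellobiose and belongs to the other label series, 8584 genes (79%) differed, 4457 higher (41%) and 4127 lower (38%), and MnP12, HTP7 and CsPh12 were lower with syringic acid, with log2 differences of -5.19, -6.25 and -3.67.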

How the data were processed

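The 15 RNA sequencing libraries of G. subvermispora were used, 3 in each of 5 groups taken from the sample titles, and the comparison described concerns 6 of them. Per the labels' protocols, ribosomal RNA was removed by a yeast kit before stranded libraries were prepared. The deposited values are unnormalized read counts per gene, in 12313 gene rows and 5 summary rows per library. HTSeq, Bowtie2, Bowtie and FastQC are listed in the submitters' processing notes. Versions, settings, strand use and genome build were absent from the sources used here. Summary rows, 8.09% to 25.9% of the counts in these 6 libraries, were left out of library sizes and tests. Genes carry locus tags or symbols, and a symbol is read as the enzyme class it abbreviates. No sequence or coordinates of this species were used here.

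Counts of all 15 libraries were normalized with TMM and tested in edgeR 4.0.16 (quasi-likelihood F-test, R 4.3.3), with 1 mean per group and two-sided tests. The default expression filter of edgeR kept 10860 genes, and the biological coefficient of variation was 0.150. A gene was called at a Benjamini-Hochberg adjusted p below 0.05 over all tested genes. Standard errors and 95% intervals were derived from the log2 change and its F statistic. Errors of levels are standard deviations of normalised CPM. The prior count for log2 CPM was 2, and that of the fit was left at edgeR's default. Intervals and limits cover counting error and library spread only, and without molecular identifiers a read is not an independent molecule. The procedure was run on simulated data with a common spread for all genes and no difference in library type. That run therefore does not cover the effect of library type.

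Named symbols were the 12 largest rises and 12 largest falls among called symbols that reached 10 CPM in the higher group and did not overlap between 3 and 3 libraries (66.8% of tested genes did not overlap). Added were 2 locus tags each way and up to 6 symbols each way that differed from all 4 other groups. Of the laccases, class II and heme-thiolate peroxidases and pheromones any member could be named, and other symbols were added after their values were seen. Members and lists were chosen with earlier results of these data known. Alternatives were RLE and upper-quartile scaling, removal of genes above 1% of counts, no filter, the 6 libraries alone, DESeq2 1.42.0, library type as a term, a replicate block, and each library left out. Replicates of a group differed beyond counting error (chi-square per gene 14.9 to 126), and none was treated as a copy.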

Additional observations from a re-analysis of the deposited data

How the results depend on the processing

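Scaling and filtering moved the counts little. The 6137 genes called became 5276 to 5910 when 1 library of the comparison was left out, those called higher 2485 to 2723 and those called lower 2763 to 3187. Against lignin the count of 3653 was then 2567 to 3363, and against poplar the count of 8584 was 8213 to 8455. DESeq2 called 3009 higher and 3199 lower. The share of calls that were higher was 44% to 52% over the settings run, with the smallest share under library type as a term and the largest without genes above 1% of counts, and no setting moved the median of all genes by more than 0.04. Library type as a term gave 2705 calls, 1190 higher and 1515 lower. Of 41 called genes followed through the alternatives, that term kept the call of 20, took it from 17 and turned the sign of 4: TOR1 (0.0047), TOR2 (0.26), CERSUDRAFT_69784 (0.43) and CERSUDRAFT_163809 (0.30). For both locus tags this followed from their high level in 4HBA replicate 1, on which the term rests. The median standard error of called symbols was 1.75 times as large with the term, which only 4HBA replicate 1 makes estimable. Some calls were lost with a larger log2 change, such as CsPh2 (-0.88, and -1.26 with the term). Others were lost with a smaller one, such as MnP12 (-2.29, and -1.35 with the term). A lost call is thus not by itself a smaller change, and why calls were lost was not tested. Low counts limit CsPh4, CsPh8 and LiP1, below 1 CPM in each of the 6 libraries.

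Among genes that were not called, the sign of small log2 changes turned with library type as a term in Cslcs6 (-0.31), GP (-0.27), LiP1 (-0.79), MnP11 (-0.35), MnP6 (0.12), HTP2 (-0.010), HTP8 (0.12), CsPh11 (-0.046), CsPh6 (-0.24) and Csfet3 (0.018). With 1 library left out, the changes ranged from -0.055 to 0.45 in Cslcs3, from -0.11 to 0.11 in Cslcs6, from -0.44 to 0.83 in MnP10, from -0.028 to 0.40 in MnP13, from -0.34 to 0.23 in MnP3, from -0.047 to 0.075 in MnP4, from -0.051 to 0.43 in MnP8, from -0.13 to 0.31 in HTP5, from -0.18 to 0.081 in HTP8, from -0.0035 to 0.43 in CsPh4, from -0.00069 to 0.12 in CsPh6 and from -0.32 to 0.056 in Csfet3, so that each changed sign. CERSUDRAFT_69784 differed from 4HBA by 0.38 without the 4HBA library of the other type.

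Libraries with the same label number (28, 29 and 30) were not shown to be paired: their deviations from the group means correlated at -0.057, -0.046 and 0.079. With these numbers as a replicate block 6062 genes were called, and CcSTE3.6, Cslcs2, LiP2 and HTP6 lost their calls.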
